A study of Mus musculus with 2 samples.

Results

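The mature miRNAs with catalogue numbers of 5000 and above are the late entries of the miRBase catalogue of mouse miRNAs. They were taken by name alone, as every probe named miR- followed by a number of at least 5000, with any letter or arm. This gave 177 of the 1265 mature miRNA probes on the array, with numbers from 5046 to 6541, of which 73 had numbers in the 5000s and 104 in the 6000s. The RNA came from embryoid bodies, cell aggregates formed in suspension by mouse embryonic stem cells of the line ATCC CRL-1934 and strain 129S2/SvPas. One group was collected at day 0 and the other at day 10 of differentiation, and each group had 1 array. Both groups grew in DMEM with 15% fetal bovine serum, nonessential amino acids, L-glutamine and b-mercaptoethanol, in ultra-low attachment dishes, so neither carried a further treatment or a genetic change named in the labels. The cells were of 1 line, and the labels name no separate cultures. Total RNA was labelled with the dye Cy5 and hybridised to probes for the miRNAs of miRBase release 19.

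A miRNA is a short RNA that guides an Argonaute protein to messenger RNAs. It pairs mainly through its seed, bases 2 to 8 from the 5′ end, and the paired messengers are repressed, so miRNAs with the same seed are grouped into families. A miRNA is cut from a hairpin precursor, and either arm of the hairpin, called 5p and 3p, can be kept. Numbers are given in order of discovery, so most entries with high numbers come from deep sequencing of small RNA, and for few of them has a function been described.

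The sequences of the members with the clearest values are shown first, 5′ to 3′ as the array's target sequences, with the seed in capitals. Most of the members whose fitted difference was at least 2-fold lower on the day 10 array follow, to show that, miR-6540-5p apart, none shared its seed with another probe on the array.
miR-6347: cAGUGCGGcuggcuggagaugc
miR-5622-3p: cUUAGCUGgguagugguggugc
miR-6540-5p: cUAAGGCAggcagacuucagug
miR-5120: uUUGGGGCuguggugccaccagc
miR-5119: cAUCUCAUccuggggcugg
miR-5132-5p: gCGUGGGGugguggacucagg
miR-5620-5p: aCGAGGCAggggcuuugacugug
miR-5620-3p: aCAGUCAUcccccugccucac
miR-6538: cGCGGGCUccggggcggcg

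Another member, miR-5112, was also lower. On the day 10 array 2 members were at least 2-fold higher relative to the bulk of miRNAs, miR-5105 and miR-6238. The sequence of the second is given with those of 4 members that were bright on both arrays.
miR-6238: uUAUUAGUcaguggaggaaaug
miR-5126: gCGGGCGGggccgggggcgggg
miR-6239: uAGCGUUGgaucacucggug
miR-5099: uUAGAUCGauguggugcucc
miR-6418-3p: aCUGCAACcuccuuucuccagg

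Some late entries begin like a miRNA catalogued long before. In the pairs below the capitals mark the run of bases that a member and the older miRNA share from their first base on. They are shown because the arrays detected the older miRNA and not the late entry.
miR-6389: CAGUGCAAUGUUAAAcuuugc
miR-130a-3p: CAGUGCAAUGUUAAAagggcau
miR-6353: UAGCAGCACGUAuuuauccuauu
miR-16-5p: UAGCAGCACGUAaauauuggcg
miR-6367: UCCCUGAGACCCUgguucagga
miR-125b-5p: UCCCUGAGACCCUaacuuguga
miR-6369: UGGCUCAGUUCAGuguuggugag
miR-24-3p: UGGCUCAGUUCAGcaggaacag

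Each probe had 3 spots on each array, and its level is given as the scanner signal in the deposited unit, as the mean ± SD of the 3 spots (n = 3 spots of 1 array). Each day had a single array, so differences between days carry no test, and the SD over spots measures the array and not the spread between cultures. Detection of a probe means a median spot signal over the 95th percentile of the array's 5 blank spots, at 70.04 for day 0 and 71.4 for day 10. The day 10 array was dimmer for most miRNA probes, though not for its blank spots, whose median was 68.07 against 55.98 on day 0. The highest median spot signal of a miRNA probe was also higher on day 10, at 46966 against 29349. The day 10 array nonetheless found fewer probes. It detected 476 of the 1265 probes (37.6%) against 738 on day 0 (58.3%), and 675 of the 739 probes detected on at least 1 array were dimmer on it. Of 24 probes for the miR-290 and miR-302 clusters, which define embryonic stem cells, 17 were detected on each array, with signals over all 24 from 43.1 to 13868 on day 0 and from 38.4 to 11659.9 on day 10. Of the markers of other cell types, those of muscle had 2 of 9 probes detected on each array, those of neurons 2 of 4, those of liver 0 of 2, and those of blood 2 of 5 on day 0 and 0 on day 10. Their part in the values below was not tested, and fewer cells of a type and less RNA per cell cannot be told apart.

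A minority of the late-numbered miRNAs gave a signal above the blank spots. The day 0 array detected 83 of the 177 (46.9%), below the 58.3% of all probes, and the day 10 array detected 47 (26.6%), below the 37.6% of all probes. All 47 detected on day 10 were also detected on day 0, so 36 members were detected on the day 0 array alone. They were 43.4% of the 83 detected members, where 35.6% of all 739 detected probes were found on day 0 alone. Most detected probes were dimmer on the day 10 array, and the part of this in both shares was not tested. The 36 were dim on day 0 too, with median spot signals from 70.9 to 359.97. The other 94 members were detected on neither array, with median spot signals from 40.9 to 69.99 on day 0 and from 34.2 to 65.7 on day 10. For these the signal is only a bound, and it does not show that the miRNA was absent.

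The late entries as a whole had the lowest share of detected probes on day 0, while the 5000s and the 6000s differed. On day 0 the array detected 75% of the 20 let-7 probes, whose names carry no number after miR-, 62.9% of the 587 probes numbered under 500 and 64.1% of the 206 numbered 500 to under 1000. It detected 50.5% of the 275 probes numbered 1000 to under 5000, close to the 46.9% of the late entries. On day 10 the shares were 50%, 44.5%, 41.3% and 26.5% for the older groups and 26.6% for the late entries. Within the late entries the 5000s had 42 of 73 detected on day 0 (57.5%) and 25 on day 10 (34.2%), and the 6000s had 41 of 104 (39.4%) and 22 (21.2%). The 5000s were thus above the probes numbered 1000 to under 5000 on both days, and the 6000s below them.

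**Figure D1:**
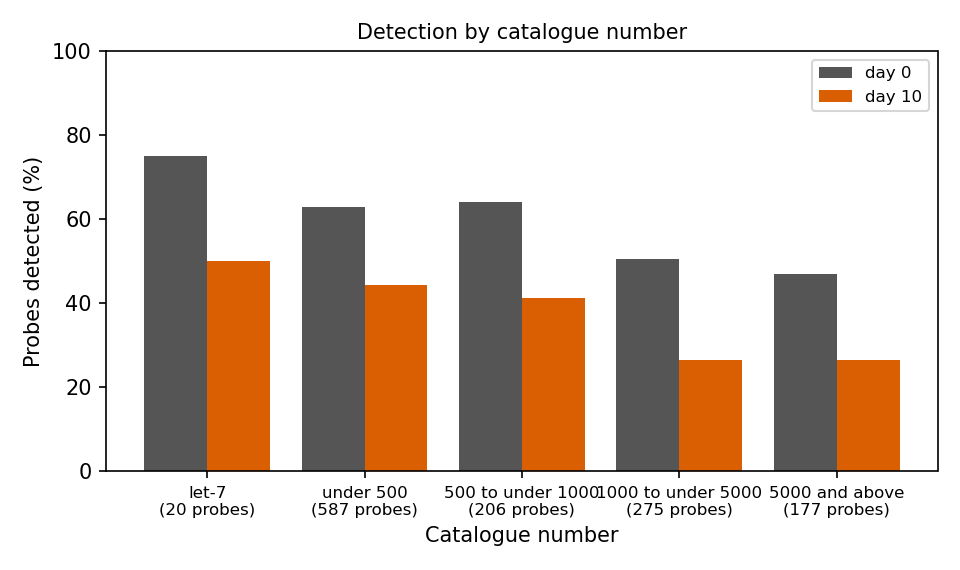
Share of probes detected on the day 0 array (grey bars) and the day 10 array (orange bars), in percent, by catalogue number, with the number of probes under each pair of bars. The late entries, at 46.9% and 26.6%, stand beside the probes numbered 1000 to under 5000, at 50.5% and 26.5%.

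No probe carried a number between 3971 and 5046, where the late entries begin. Just above this gap, miR-5046 had a signal of 56.98 ± 4.80 on day 0 and 50.5 ± 4.50 on day 10, and miR-5098 had 63.05 ± 9.33 and 47.1 ± 4.22, all under the thresholds. miR-5097 had 2112 ± 168 and 495 ± 22.2. Just below it, miR-3969 and miR-3971 were detected on neither array, with 46.1 ± 5.64 and 53.4 ± 4.49 on day 0. miR-3970 was detected on day 0 alone, with 176 ± 20.3 and then 50.3 ± 4.06. Both sides of the gap therefore held detected and undetected probes.

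A few bright probes carried most of the signal of the late entries. A scanner signal depends on the probe as well as on the RNA, so signals of different probes are given side by side and do not rank the miRNAs by abundance. The median spot signal over all 177 members was 68.6 on day 0 and 48.0 on day 10, and over all 1265 probes it was 85.4 and 54.9. The share of bright probes was near that of the whole array. A signal of 1000 was reached by 21 members on day 0 (11.9%) and 12 on day 10 (6.78%), and by 11.1% and 6.64% of all probes. Of the members, 15 on day 0 and 16 on day 10 stood among the 100 brightest probes of the array. Members were 177 of 1265 probes and held 16.9% of the summed signal of all probes on day 0 and 15.8% on day 10. The 10 brightest members held 70.3% and 76.6% of the summed signal of the members. The share held by a like fraction of all probes was not worked out, so this is not shown to be particular to the late entries.

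The 6 brightest members were miR-6538, miR-5126, miR-6239, miR-5099, miR-5109 and miR-6243 on day 0, and 5 of the 6 were also among the 6 brightest on day 10, where miR-6418-3p took the place of miR-6243. miR-5126 had spots of 16465, 14226 and 14014 on day 0 and of 9712, 9652 and 10046 on day 10. miR-6239 had spots of 15984, 13357 and 13871 and then 11639.8, 10145 and 10939.9. For both, every day 10 spot was dimmer than every day 0 spot. After quantile normalization, which sets the 2 arrays to the same distribution, the log2 difference, day 10 minus day 0, was -0.19, SD 0.10 for miR-5126 and 0.040, SD 0.16 for miR-6239. These differences are relative to the bulk of the miRNAs on the arrays, and the SD combines the spots of both arrays.

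miR-5099 had spots of 11834, 13704 and 12789 on day 0 and of 9117, 9228 and 9605 on day 10, with a normalized difference of -0.0068, SD 0.18. miR-6243 went from 7487, 6566 and 6737 to 3451, 3364 and 3696, with a difference of -0.081, SD 0.11. The spots of both were dimmer on day 10 throughout, yet relative to the bulk the differences were smaller than their SDs. miR-5109 had spots of 9692, 9995 and 9843 on day 0 and of 10869.6, 10506 and 10927 on day 10. It was one of only 2 detected members with a higher scanner signal on day 10, the other being miR-5105, and its normalized difference was 0.77, SD 0.043.

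**Figure D2:**
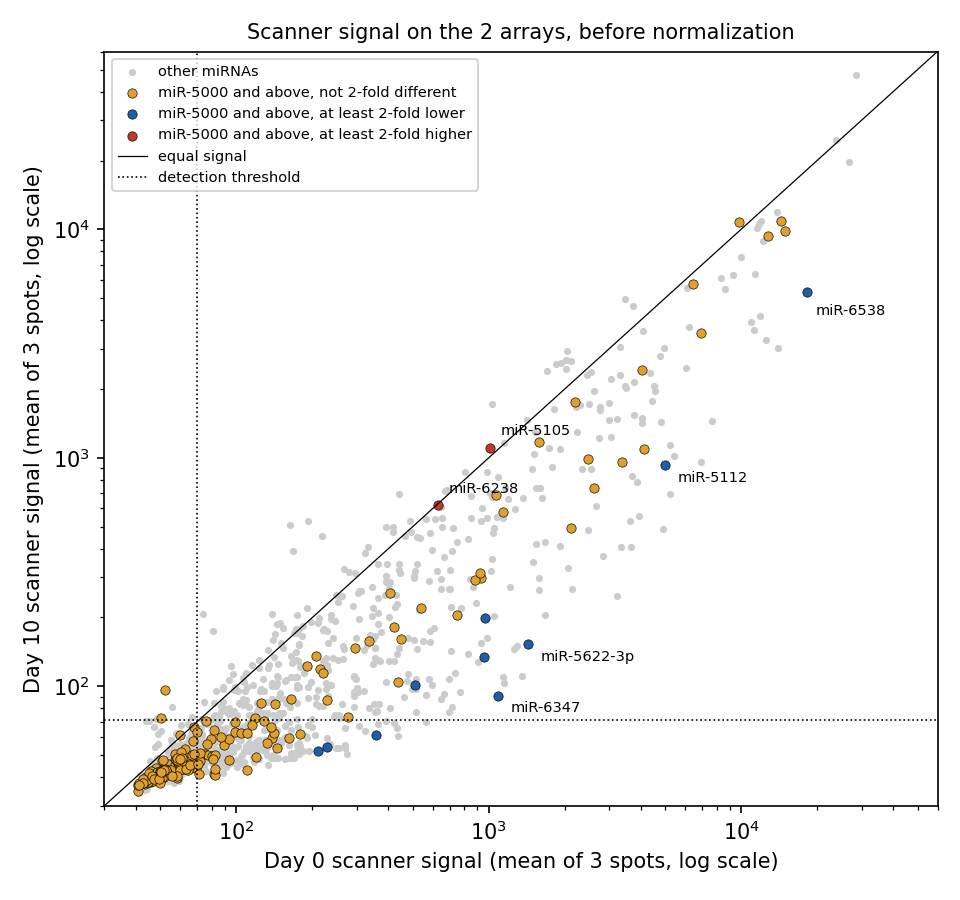
Scanner signal on day 0 (x axis) and day 10 (y axis), mean of 3 spots before normalization, on log scales, for the 177 late-numbered miRNAs (coloured points) and all other miRNAs (grey points). Dotted lines mark the detection thresholds of 70.04 and 71.4, and most points lie under the line of equal signal. The yellow points above the day 10 threshold but left of the day 0 one are miR-5618-5p and miR-6407, each raised by 1 bright spot of 3 and not counted as detected.

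Most detected late entries had a fitted difference under 2-fold relative to the bulk of miRNAs. A member was counted as higher or lower where its normalized log2 difference was at least 1 in size, a 2-fold difference, and the brighter array detected it. Of the 83 detected members, 2 were higher (2.41%, where 6.77% of all 739 detected probes were) and 10 were lower (12.05%, where 10.4% of all detected probes were). The share of lower members was thus near that of all probes, and is no result about the late entries. The other 71 differed by less, from -0.94 for miR-5097 to 0.77 for miR-5109. Of the 83, 36 were not detected on day 10, so for those among the 71 a larger fall could not be measured. The median difference of the 83 was -0.12, and 0.024 over all 739 detected probes. Of the 83, 50 were below 0 (60.2%), as were 48.7% of all detected probes.

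The side on which that median fell depended on the scaling between the arrays. It was -0.74 without normalization, where the median over all detected probes was -0.63, and 0.21 with the 75th percentiles of the arrays set equal. Set against the median over all detected probes, it was below 0 in each setting tried, but several of these could not differ. Without normalization, and with the 75th percentiles, the spike-in probes or the ribosomal RNA probes set equal, the relative value was -0.11. These settings shift all probes by a constant, which cancels in the relative value, so they are no separate checks. With no detection filter the relative value was only -0.023. Among the 47 members detected on both arrays the median was -0.060 and 25 were below 0, where the 475 such probes of the whole array had a median of 0.22 and 172 below 0.

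Catalogue groups differed in the share of probes called higher on day 10. Of the 370 detected probes numbered under 500, 43 were higher (11.6%) and 34 lower (9.19%), with a median difference of 0.19. Of the 132 numbered 500 to under 1000, 4 were higher and 11 lower, with a median of -0.092. Of the 139 numbered 1000 to under 5000, 1 was higher (0.72%) and 18 lower (12.9%), with a median of -0.16. The late entries, with 2 higher and 10 lower, had values like those of this last group.

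The lowest values belonged to miR-6347, miR-5622-3p and miR-6540-5p, which were detected on both arrays and dropped from near or above 1000 to signals under 200. The miR-6347 spots read 1159.9, 915 and 1199.6 on day 0 and 93.1, 94.95 and 85.01 on day 10. Its difference was -2.41, SD 0.22, which is 5.31-fold lower. It was the sole member past 4-fold with this processing, though not the sole one under other settings. RefSeq places it outside genes, at chr1:167290125-167290146, plus strand of GRCm38.p6.

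The miR-5622-3p spots read 1322, 1467 and 1509 and then 137, 149 and 173, and the difference was -1.97, SD 0.19, or 3.91-fold lower. In the 9 other settings of processing described below, its difference ran from -3.23 to -2.005, past 4-fold in each. Its precursor lies within the interval of Tpx2, a gene for a spindle assembly factor, at chr2:152865105-152865126, plus strand. The miR-6540-5p spots read 965, 989 and 927 and then 129, 133 and 141, and the difference was -1.65, SD 0.091, or 3.13-fold lower. In all 3 the dimmest day 0 spot was several times as bright as the brightest day 10 spot. The 3 were chosen for their large differences, so this adds no separate check.

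The probes of miR-5112, miR-5119 and miR-5132-5p were lower by a smaller factor and detected on both arrays. miR-5112 had spots of 4565, 5024 and 5424 on day 0 and of 915, 953 and 915 on day 10 (difference -1.40, SD 0.14, 2.63-fold lower). miR-5119 had 495, 508 and 527 and then 98.95, 102 and 103 (-1.17, SD 0.057, 2.25-fold lower). It lies within Cdk12, a gene for a kinase of transcription elongation, at chr11:98262638-98262656, plus strand. miR-5132-5p had 1026, 927 and 945 and then 199.8, 206 and 193 (-1.10, SD 0.096, 2.15-fold lower). It lies within Irak1, a gene for a kinase of interleukin-1 receptor signalling, at chrX:74023571-74023591, minus strand. For each of these probes the spots of the 2 arrays did not overlap. They were chosen for a 2-fold difference and most detected probes were dimmer on day 10, so this is no separate check.

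The day 10 array did not detect miR-5120, miR-5620-5p or miR-5620-3p, so their folds are bounds. Each bound sets the day 0 level against the lowest normalized level of a detected probe on day 10, or the probe's own level where that is higher. miR-5120 had spots of 349.9, 360.0 and 367 on day 0 and of 61.6, 62.9 and 59.3 on day 10 and was at least 2.39-fold lower (fitted difference -1.41, SD 0.053). It lies within Pax5, a gene for a transcription factor of B cells, at chr4:44607536-44607558, minus strand. The arms of miR-5620 had spots of 209, 257 and 223 for 5p and 185, 219 and 228 for 3p on day 0. On day 10 they read 53.2, 51.3 and 58.6 and 48.7, 52.8 and 54.9, within the range of the blank spots of that array, 36.2 to 71.6. They were at least 1.64-fold and 1.54-fold lower, which does not reach 2-fold, while the fitted differences were -1.08 and -1.06. The 5p arm lies within Clcn4, a gene for a chloride transporter, at chr7:7298891-7298913, plus strand.

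miR-6538 was the brightest late entry on day 0 and lost that place. Its spots read 19096, 18869 and 16792 on day 0 and 5027, 5498 and 5450.0 on day 10, and among all 1265 probes its median signal went from rank 4 to rank 20. The difference was -1.02, SD 0.097, or 2.03-fold lower, just past the threshold. It lies within Rnf144a, a gene for a ubiquitin ligase, at chr12:26414970-26414988, minus strand.

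All 10 lower members were below 0 in each of 9 other settings of background correction and scaling, and 7 were past 2-fold in all 9. The other 3 missed 2-fold in some. miR-6538 ran from -1.92 to -0.82, miR-5620-5p from -1.89 to -0.80 and miR-5620-3p from -1.82 to -0.73. Some of the 9 could hardly go against a lower call. Over all detected probes, 77 were lower after quantile normalization. Without normalization 232 were, with spike-in probes set equal 178, and with 5S rRNA probes set equal 267. Others of the 9 kept the quantile scaling.

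The 2 members counted as higher had nearly equal scanner signals on both days, and reached 2-fold only relative to the bulk, which was dimmer on day 10. miR-5105 had spots of 951, 1008 and 1072 on day 0 and of 1089, 1098 and 1131 on day 10. Each day 10 spot was brighter than each day 0 spot, by little. Without normalization its difference was 0.13, and after quantile normalization it was 1.23, SD 0.091, or 2.35-fold higher. It was past 2-fold in 6 of 9 settings, and just below 0 (-0.011) where the arrays were scaled on the 5S rRNA probes. miR-6238 had spots of 669.8, 635 and 587 and then 676, 559 and 622, and the 2 sets of spots overlapped. Its difference was 1.10, SD 0.18 after quantile normalization, or 2.14-fold higher, and -0.020 without normalization. It was past 2-fold in 3 of 9 settings, and RefSeq places it outside genes, at chr7:53891796-53891817, minus strand.

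The next highest differences, all under 2-fold, were those of miR-5109, miR-5115 (0.76, SD 0.071), miR-6418-3p (0.73, SD 0.15) and miR-5121 (0.71, SD 0.068). miR-5115 had signals of 2188 ± 96.4 on day 0 and 1758 ± 6.65 on day 10, and miR-5121 had 1583 ± 69.8 and 1174 ± 18.3. Both were thus dimmer in scanner signal on day 10 and higher only relative to the bulk, and they turned to -0.31 and -0.42 without normalization, where miR-6418-3p turned to -0.17. miR-5121 lies at chr7:45126925-45126945, minus strand, within Rpl13a, a ribosomal protein gene, and within Snord33, a small nucleolar RNA encoded in it. An array probe cannot tell a miRNA from another RNA with the same bases. That limit holds for every member, the brightest and those counted as higher included, and was not tested.

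**Figure D3:**
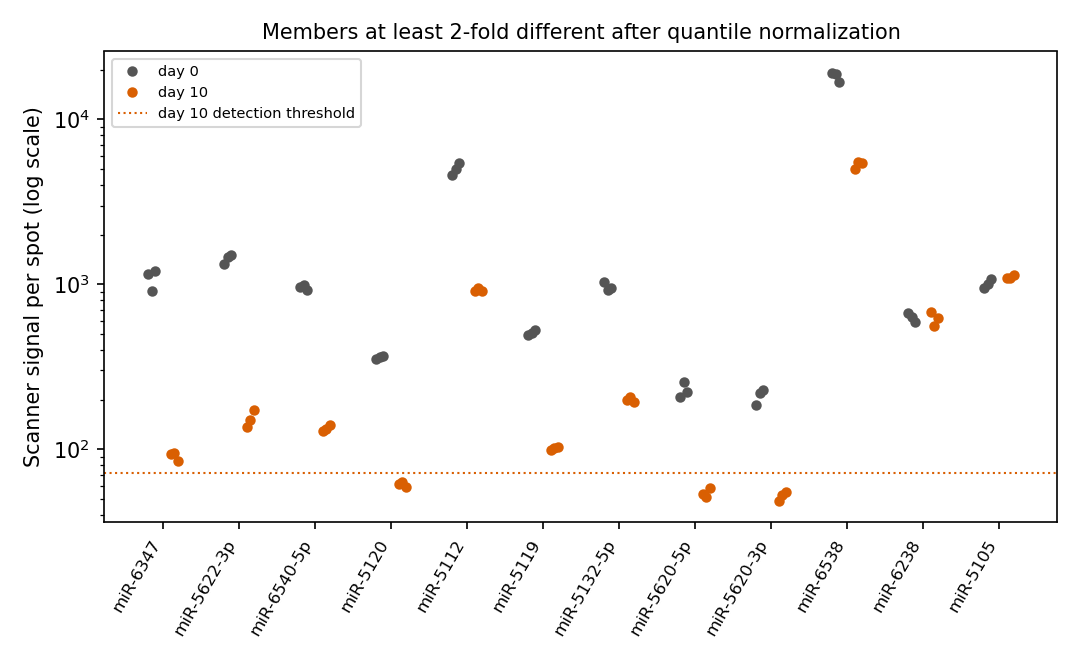
Scanner signal of each of the 3 spots on day 0 (grey) and day 10 (orange), on a log scale, for the 10 members lower and the 2 higher by at least 2-fold after quantile normalization. The spots of the lower members do not overlap between days, those of miR-5105 and miR-6238 are close in height, and 3 members lie under the day 10 threshold of 71.4 (dotted line). The lower members were chosen for their 2-fold difference, so the lack of overlap is no separate check.

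Some precursors had arms that differed in direction after quantile normalization, though not without it. The same count over the older precursors on the array was not made. The array held both arms of 23 precursors, or 46 of the members. At least 1 arm was detected for 17 of them, both arms for 7 and a single arm for 10. Of the 7, only miR-5620 and miR-5624 had both arms on the same side of 0 after quantile normalization. The arms of miR-5624 had median spot signals of 219.9 for 5p and 111 for 3p on day 0 and differences of -0.38 and -0.65. Every one of these arms was dimmer in scanner signal on day 10 and below 0 without normalization, so opposed directions are relative to the bulk. Of these arms, both of miR-5620 and miR-6392, miR-5622-5p and miR-5624-3p were not detected on day 10. Among the opposed pairs, the differences of miR-5622-5p and miR-5117-3p were smaller than their SDs. The opposed pairs without either limit were those of miR-5107 and miR-6418.

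The widest gap was that of miR-5622, whose 3p arm was lower by the value above while the 5p arm, with day 0 spots of 89.2, 93.8 and 98.5, had a difference of 0.023, SD 0.12. The 5p arm was near the detection threshold on day 0 and under it on day 10, which limits how far it could fall. In miR-6418 both arms were well above background on both days. The 5p arm went from 737, 759 and 758 to 228, 217 and 173 (-0.68, SD 0.19), and the 3p arm from 6632, 6499 and 6173 to 6477, 5594 and 5131 (0.73, SD 0.15). The gap between its arms was thus several times the SD over spots, which does not measure the spread between cultures. Without normalization the 5p and 3p arms of miR-6418 had differences of -1.78 and -0.17, both below 0. Its precursor lies within Gnb2, a gene for a G protein beta subunit, with the 3p arm at chr5:137529509-137529530, minus strand.

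In miR-5107 the 5p arm had spots of 3782, 4095 and 4453 and then 1068, 1119.5 and 1095 (-0.89, SD 0.15). The 3p arm had 189, 192 and 187 and then 119, 129 and 118 (0.33, SD 0.068). In miR-5117 the 5p arm differed by -0.45, SD 0.077 and the 3p arm by 0.23, SD 0.25. In miR-6392 the arms differed by 0.13, SD 0.061 and -0.20, SD 0.052, from day 0 signals of 86.7 ± 4.62 and 80.7 ± 1.28 near the threshold. Neither arm of miR-6392 was detected on day 10, so their fitted differences do not settle a direction.

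Among the 10 precursors with a single detected arm, miR-5132 and miR-6540 had the largest differences. The detected 5p arms are described above. The 3p arms had day 0 signals of 45.8 ± 2.03 for miR-5132-3p and 50.1 ± 3.37 for miR-6540-3p, under the threshold. The 3p arms of miR-5616, miR-5617 and miR-6416 were the detected ones, with differences of 0.12, -0.032 and 0.070. For miR-5129, miR-5134, miR-5615, miR-5621 and miR-5627 it was the 5p arm, with differences of 0.27, -0.091, 0.17, 0.15 and 0.49. None of these 8 arms reached 2-fold, but miR-5617-3p, miR-5134-5p, miR-5621-5p and miR-5627-5p were not detected on day 10, so a larger fall could not be measured for them.

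**Figure D4:**
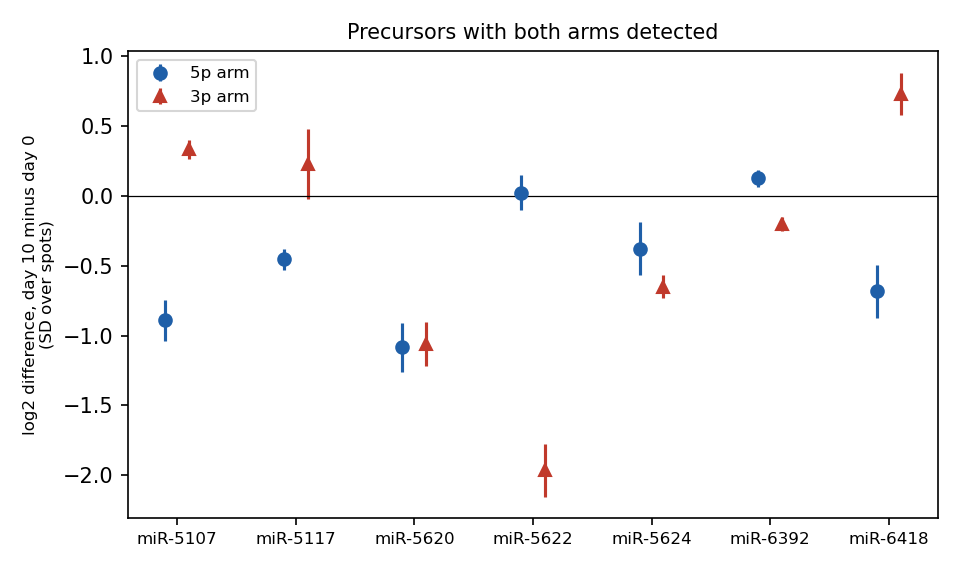
Log2 difference, day 10 minus day 0, after quantile normalization, for the 5p arm (blue circles) and the 3p arm (red triangles) of the 7 precursors with both arms detected, with bars for the SD over spots. The arms of miR-5620 and miR-5624 lie on the same side of 0, while those of the other 5 lie on opposite sides, in miR-5622 with the 5p arm near 0.

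A small set of late entries carries the seed of a family known long before. The 177 members had 159 distinct seeds, and 29 of them shared theirs with an older miRNA on the array. Of these 29, 13 were detected on at least 1 array, and of the 148 others 70. The families of miR-17, of miR-15 and miR-16, of miR-130 and miR-301, of miR-125, of miR-24, and of miR-1 and miR-206 had 15 late entries with their seed. Of the 15, the arrays detected 8 on day 0 and 4 on day 10, with a median spot signal over the 15 of 78.1 and 50.1. The 27 older miRNAs of these families had 25 and 21 detected, with medians of 645 and 252. These 6 families were picked as well known. The other 13 seed groups with an older miRNA held 14 late entries, 5 of them detected on at least 1 array, and 15 older miRNAs, 7 of them detected. In some of these the late entry had signal and the older one did not, as for miR-5107-3p, with a median spot signal of 189 on day 0 beside 56.7 for miR-582-3p, and miR-6370, with 115 beside 53.0 for miR-873a-5p. However, miR-5107-3p shares a run of 11 bases with miR-320-5p, and miR-6370 shares 12 with miR-211-3p. Those older miRNAs were detected on day 0, at 164 ± 10.3 and 138 ± 3.86, and their binding to these probes was not tested. With the seed of miR-330-3p, detected at 90.4, miR-6240 had 2491.

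The 6 older members of the miR-17 family, which promotes proliferation, were detected on both arrays. Among them, miR-17-5p had 3456 ± 29.9 on day 0 and 4938 ± 519.7 on day 10. The late entry with this seed, miR-6383, had 42.9 ± 5.39 and 37.9 ± 3.16, under both thresholds. The sequences below carry the shared seed in capitals and part after it.
miR-6383: uAAAGUGCugugucacggaca
miR-17-5p: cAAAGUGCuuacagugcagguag

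Other late entries with the seed of a family were above the threshold. miR-5124b, with the seed of miR-24-3p, had 3371 ± 34.4 on day 0 and 963 ± 75.2 on day 10 (-0.71, SD 0.11). Its relative miR-5124a, which shares a run of 12 bases with it but not the seed, had 45.6 ± 2.92 and 41.3 ± 0.53, under both thresholds. With the seed of miR-1a-3p and miR-206-3p, which are muscle miRNAs, miR-6349 had 537 ± 36.9 and 219 ± 3.10 (-0.14, SD 0.093), and miR-6382 had 142 ± 9.54 and 83.5 ± 4.45 (0.12, SD 0.10). In the miR-125 family, miR-6394 had 206 ± 16.8 and 136 ± 3.66 (0.41, SD 0.094). None of these reached 2-fold in either direction.

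Seeds were also shared among late entries alone, in 7 groups with 15 members. miR-6540-5p, lower on day 10, shared its seed with miR-5624-3p, which had a difference of -0.65, SD 0.079 and was detected on day 0 alone. miR-6239, among the brightest, shared its seed with miR-6351, which had 81.4 ± 8.20 on day 0 and 64.4 ± 3.92 on day 10. In 4 of the 7 groups no member was detected.

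Cross-hybridisation, in which a probe binds a near relative of its target, was not tested. A run of at least 11 bases was shared with another probe's target by 36 members, in 35 pairs, of which 28 were with an older miRNA, and the longest run had 17 bases. In 10 of these pairs, with 8 members, the run began at the first base of both, had at least 12 bases and linked a member to an older miRNA. Of the 8 members, 3 were detected on day 0. The share of older miRNAs with such runs was not worked out. Among the members lower on day 10, miR-5620-5p shares a run of 11 bases with miR-346-3p. That older miRNA had 1092 ± 64.5 on day 0 and 823 ± 31.4 on day 10.

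miR-6389 shares its first 15 bases with miR-130a-3p. It had 40.9 ± 0.76 on day 0, and miR-130a-3p had 648 ± 51.7. miR-6353 shares 12 with miR-16-5p, and their signals were 45.6 ± 3.36 and 2306 ± 88.4. miR-6367 shares 13 with miR-125b-5p and miR-125a-5p, and the signals were 71.4 ± 4.66, 3208 ± 347 and 983 ± 97.6. miR-6369 shares 13 with miR-24-3p, at 70.99 ± 4.15 and 1629 ± 103. These 4 members, and miR-6341 at 44.2 ± 7.13 beside miR-130b-3p at 311 ± 0.49, were not detected on day 0, where the older miRNAs named here were. miR-6389 also shares 12 bases with miR-130c, which was not detected either (61.4 ± 5.72).

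The 3 detected members of such pairs were miR-6395, miR-5127 and miR-6382. miR-6395 shares 17 bases with miR-328-3p and had 162 ± 10.4 on day 0 beside 352 ± 20.5. miR-5127 shares 13 with miR-150-5p and had 93.1 ± 6.35 beside 221 ± 19.4. The reverse held for miR-6382, detected at 142 ± 9.54, while miR-1a-3p, with which it shares 13 bases, was under the threshold at 42.7 ± 1.92. Further along, miR-6382 shares a run of 11 bases with miR-758-5p, detected at 319 ± 20.1, whose part in its signal was not tested. The signals of miR-6395 and miR-5127 cannot be told apart from binding of the older miRNA.

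**Figure D5:**
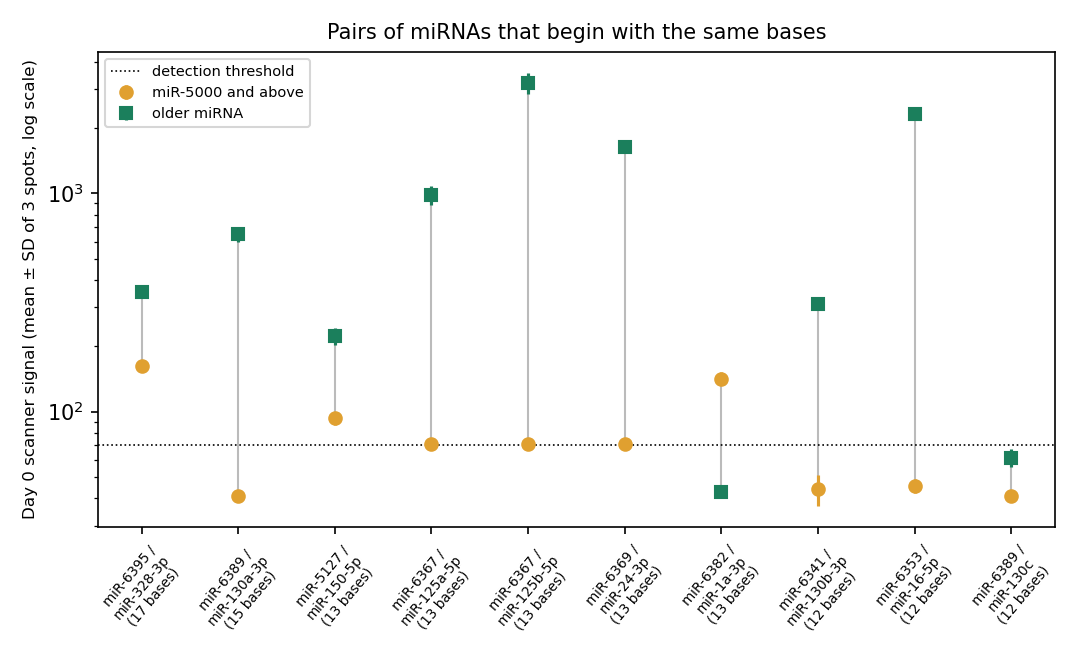
Day 0 scanner signal (mean ± SD of 3 spots, log scale) of late-numbered miRNAs (yellow circles) and of the older miRNA that begins with the same bases (green squares), for the 10 pairs with a shared start of at least 12 bases, with the number of shared bases under each pair. Grey lines join the probes of a pair and stand for no ratio of abundance, and 5 of the 8 late entries were not detected. Of these, miR-6367 and miR-6369 have means just above the threshold of 70.04 (dotted line) and medians under it.

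Late entries rich in G and C were detected more often on day 0. Of the 24 members with under 40% G and C, 6 were detected on day 0 (25%), and the shares were 32.5% of 40 members at 40 to under 50%, 46.8% of 62 at 50 to under 60%, 64.9% of 37 at 60 to under 70%, and 78.6% of 14 at 70% and above. Among the other miRNAs the same bins had 55.2%, 56.2%, 60.9%, 68.2% and 83.7% detected. On day 0 the members thus had lower shares than the other miRNAs in each bin. On day 10 the shares of the members were 20.8%, 25%, 19.4%, 32.4% and 57.1%, with no steady rise over the first 3 bins, and those of the other miRNAs were 47.5%, 40.5%, 32.7%, 39.2% and 44.2%. In the last bin the members were then above the other miRNAs, with 8 of 14 detected. The median content was 54.2% over the members and 50% over all probes, 58.3% in the detected members and 50% in those not detected. Base composition affects how strongly a probe binds, and its part in the signals was not tested.

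The lower members were richer still, with a median of 63.2% G and C over the 10. The 2 higher members lay far apart, 1 under 40% and 1 at 70% and above, so their median of 63.2% describes neither. The 21 members with a day 0 signal of 1000 or more had a similar median, 61.9%. The run GGGG, searched on the miRNA's own strand, was in 5 of the 10 (miR-5119, miR-5120, miR-5132-5p, miR-5620-5p and miR-6538). It was in 13 of the 73 other detected members (17.8%), in 23 of all 177 members (13.0%) and in 7.98% of all 1265 probes. Of the 47 members detected on both arrays 27.7% held it, as did 1 of the 2 higher members. Of all 77 lower probes of the array 7.79% held it. The run UGUGUG was in 22.1% of those 77 probes and in 3.56% of all probes, but in only 2 members, miR-6348 and miR-6409. These had signals of 2462 ± 182 and 164 ± 7.72 on day 0 and 990.0 ± 14.7 and 88.1 ± 2.79 on day 10, with differences of -0.17, SD 0.13 and 0.012, SD 0.071. None of the 10 lower members held UGUGUG.

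Most late entries with a known position lay within genes. RefSeq's table for GRCm38.p6 matched 145 of the 177 members by name and mature sequence. Of these, 106 lay within the interval of an annotated gene, 92 of them within a protein-coding gene, and 39 lay outside. The strand of the gene was not compared with that of the miRNA. Members without a match, miR-5105, miR-5109, miR-5112 and miR-6243 among them, are outside these counts. The share within genes was not worked out for the older miRNAs, so it is not shown to be particular to the late entries. Of the 106 within genes 47 were detected on at least 1 array, and of the 39 outside 17, close in share. Among the brightest members, miR-5126 lies within Dner, a gene for a Notch ligand of neurons, at chr1:84695890-84695911, plus strand, and miR-6239 within Gpc6, a gene for a glypican of the cell surface, at chr14:117953768-117953787, minus strand.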

How the data were processed

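The spot values are a linear median density per spot, the intensity that the authors deposited in the scanner files, per the file headers; background subtraction is not given in the sources used here, and the files have no background column. A separate table holds the authors' processed intensity per probe, deposited as linear values whose medians were 25.4 (day 0) and 22.0 (day 10). It followed the scanner signal in rank (Spearman rho across probes 0.998 and 0.996), while its scaling between arrays is unknown, and it served as an alternative. Each array held 3968 spots, of which 3795 were miRNA spots. Spot values ran from 33.6 to 55402 on day 0 and from 31.6 to 52557 on day 10.

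Signals were corrected with normexp of limma 3.58.1 (R 4.3.3; offset 50, all spots), log2 transformed, and quantile normalized over the miRNA spots and averaged over the 3 spots of a probe. Because of the offset, folds of dim probes are understated. Detection used the 95th percentile of 5 blank spots and is itself imprecise, and calls used a log2 difference of 1. The number of arrays (1 per group) limits the precision and allows no p-value. Alternatives changed the offset, background correction, scaling, spot summary, detection and fold thresholds. Subtracting the blank spots and leaving out members with shared runs were added after the data were seen. Named members were those past 2-fold, the 6 brightest of each array, the 6 largest differences in each direction, both arms of precursors with a detected arm, 4 examples and those at the edge of the numbering. Other names were chosen after their values were seen. The members and lists were chosen with earlier results of these data known. Mature sequences are the array's target sequences, and matches, positions and genes are from RefSeq (GRCm38.p6).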

Additional observations from a re-analysis of the deposited data

How the results depend on the processing

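No paired analysis was possible because there was 1 array for each day, and leaving out an array leaves no comparison. Signal over background limits the dim members, as 94 of 177 were detected on neither array, and a doubled detection threshold left 52 detected on day 0. Without normalization, 0 members were at least 2-fold higher and 29 lower, with a median difference of -0.74. With spike-in probes set equal these were 0, 23 and -0.51, and for 5S rRNA probes set equal 0, 37 and -0.88. These 3 settings differ from each other by 1 constant, not from quantile normalization. Over all probes the lower calls were then 178 for the spike-in, 267 for the 5S rRNA setting and 232 for no normalization. With the 75th percentiles set equal the median turned to 0.21, and with no detection filter it was 0.0029. Cyclic loess and the authors' processed values each gave 1 higher member, and a 4-fold threshold gave 0 higher and 1 lower. Relative to all detected probes the median was -0.15, and -0.28 among probes detected on both arrays. Of members past 2-fold, the sign of miR-5105 turned with 5S rRNA probes set equal (-0.011). That of miR-6238 turned without normalization (-0.020), under the 5S rRNA setting (-0.17) and after the blank spots were subtracted (-0.061). Of 487 values of named members under other settings, 86 had another sign than after quantile normalization, in 34 of 51 members. Of these, 27 came with the 5S rRNA setting, 23 without normalization, 12 with the spike-in setting, 11 after subtracting blank spots and 7 with the 75th percentiles set equal. None of the 10 lower members turned under the settings of background correction, scaling and spot summary tried. Settings that lower most probes could hardly have turned them. Causes of these shifts were not tested.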
